A study of Mus musculus with 40 samples.

Results

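The interaction of genotype with MI-503 is the difference between the responses of 2 genotypes to the same compound. It was measured here in mouse bladder urothelial cells grown as organoids, and its members are the 16921 of 53465 gene identifiers that passed a filter on low counts, in the 8 RNA-seq libraries of a series of 40 samples. The libraries form 4 groups of 2. WT DMSO and WT MI-503 are cells labelled wild type, given the solvent DMSO or MI-503 at 1 µM for 4 days, and dKO DMSO and dKO MI-503 are cells labelled as double knockouts of Kmt2c and Kmt2d, treated in the same way. Per the labels, every group was grown in one medium that held EGF, Noggin, R-spondin, the ROCK inhibitor Y-27632, the TGF-beta receptor inhibitor A83-01 and N-acetylcysteine, so these agents were present in all values below. The labels name neither the deleted exons, the means of deletion nor the number of lines or cultures, so p-values measure the spread between these libraries, which may be technical. For each gene, the interaction is the log2 response to MI-503 in dKO minus the log2 response in WT. A positive value means that the response was the more positive in dKO, which also includes a smaller loss, and 1 unit is a 2-fold ratio between the responses. A gene is called here when edgeR's quasi-likelihood F test passes an adjusted p of 0.05.

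KMT2C and KMT2D are the catalytic subunits of complexes that place H3K4 monomethylation at enhancers. Menin, the product of Men1, holds the related methyltransferases KMT2A and KMT2B at many promoters, and MI-503 is a small molecule that occupies the site on menin at which KMT2A binds. In leukaemias with a rearranged KMT2A gene, such compounds lower Hox and Meis1 RNA. Urothelium is the stratified lining of the bladder, with basal cells marked by keratins 5 and 14 and p63 below, and umbrella cells marked by uroplakins on top. The comparison asks whether cells labelled as knockouts of both enhancer methyltransferase genes answer menin inhibition in another way than cells labelled wild type.

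Library totals ran from 58113705 to 68571176 counts. Levels are TMM-scaled CPM, which is each count relative to its library's total. The labelled cell type was checked against its markers: the basal markers Krt5, Trp63 and Itga6 were present in all groups, with Trp63 at 235 CPM or more in each group mean, and the basal ligand gene Shh had no count. Among uroplakin genes, Upk2, Upk1a, Upk3a and Upk3b were at most 0.149, 1.90, 2.58 and 1.64 CPM in any library, whereas the group means of Upk1b ran from 100 to 140 CPM and those of Upk3bl from 36.6 to 453. Other markers of differentiated urothelium were abundant, with group means from 1310 to 4990 CPM for Krt7 and from 2220 to 3480 for Krt19, so the cultures held both basal and differentiation markers. The summed CPM of 21 basal markers was 18022 and 16826 CPM in WT DMSO, 23012 and 22041 in WT MI-503, 34160.2 and 36785 in dKO DMSO and 34067 and 31272 in dKO MI-503. Of the markers of other cell types, the leukocyte gene Ptprc was at most 0.0292 CPM, the endothelial gene Pecam1 0.114 and the fibroblast collagen gene Col1a1 0.297 in any library, and Dcn, Lum, Adgre1, Emcn, Plvap and Myocd had no count. Summed over 12 genes each, immune cell markers reached 21.4 and 18.7 CPM in WT DMSO, 161 and 166 in WT MI-503, 13.7 and 13.7 in dKO DMSO and 70.8 and 61.9 in dKO MI-503, nearly all of it from Cd68, a lysosomal glycoprotein gene. Summed fibroblast markers reached 5.19 and 4.02 CPM in WT DMSO, 49.7 and 47.0 in WT MI-503, 8 and 8.45 in dKO DMSO and 21.0 and 19.6 in dKO MI-503, mostly Fbln1, a matrix protein gene. Both sums were higher with MI-503 in both genotypes and highest in WT MI-503. Their part in the results below was not tested. Summed over 10 genes, smooth muscle markers gave 55.7 and 49.6 CPM in WT DMSO, 116 and 104 in WT MI-503, 75.3 and 95.3 in dKO DMSO and 143 and 119 in dKO MI-503. Nearly all of this came from Smtn, with means of 48, 67.6, 83.7 and 122 CPM in that order, and Acta2, with 3.2, 40.8, 0.988 and 7.13. Endothelial markers, also 10 genes, gave 1.07 and 1.02 CPM in WT DMSO, 1.14 and 1.29 in WT MI-503, 0.243 and 0.252 in dKO DMSO and 0.267 and 0.421 in dKO MI-503. Summed over 20 genes, neural genes gave 42.6 and 44.3 CPM in WT DMSO, 17.9 and 17.1 in WT MI-503, 125 and 123 in dKO DMSO and 102 and 95.1 in dKO MI-503, so every dKO library was above every WT library. Of these, Gap43 had a mean of 0.0247 CPM in DMSO and 0.0794 under MI-503 in WT, and 15.1 in both dKO groups. Slitrk5 was at 0 in both WT groups, where it had no count, and at 13 CPM in DMSO and 9.79 under MI-503 in dKO. The neuronal genes Nefl and Dcx had no count, and Rbfox3 and Snap25 were at most 0.0668 and 0.121 CPM in any library. Other neuronal genes were present. Mean Tubb3 was 1.07 CPM with DMSO and 3.81 with MI-503 for WT, against 7.66 and 25.9 for dKO. Mean Map2, by the same order, was 21.9 and 10.6 CPM for WT, against 48.7 and 37.5 for dKO. The part of these genes in the results below was not tested. In bulk RNA, fewer cells of a type and less RNA per cell cannot be told apart.

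Kmt2c measured 110.2 and 111 CPM in WT DMSO, 60.2 and 61.6 in WT MI-503, 55.2 and 52.3 in dKO DMSO and 26.6 and 29.8 in dKO MI-503. It was lower in both dKO groups than in the matching WT groups and lower with MI-503 in both genotypes, and the interaction was not called (-0.07, SE 0.08, adjusted p = 0.529). Kmt2d measured 95.4 and 86.5 CPM in WT DMSO, 75.8 and 65.7 in WT MI-503, 111 and 133 in dKO DMSO and 104 and 86.5 in dKO MI-503, so it was not lower in the libraries labelled dKO. Kmt2d was called higher in dKO in DMSO (0.43, adjusted p = 0.00166) and under MI-503 (0.43, adjusted p = 0.00226), and its interaction was not called (0.00, SE 0.14, adjusted p = 0.997). Since no label names the deleted exons, these gene-level values check neither label in full, and dKO stands below for the libraries labelled so. For the inhibitor's own target, Men1 measured 17.0 and 14.5 CPM in WT DMSO, 34.0 and 32.4 in WT MI-503, 29.6 and 32.0 in dKO DMSO and 48.7 and 42.9 in dKO MI-503. Men1 rose with MI-503 in both genotypes and less so in dKO (-0.51, SE 0.12, adjusted p = 0.00317). Kmt2a fell in both and less so in dKO (0.28, SE 0.07, adjusted p = 0.00414), a call that ended with scaling by library size only (0.12, adjusted p = 0.175) and with no filter (0.18, adjusted p = 0.0698).

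Before the responses are read, the WT DMSO libraries have to be described, because they stand apart from the other 6. Summed over 24 genes, ER chaperone RNA (ER, endoplasmic reticulum) measured 42562 and 45842 CPM in WT DMSO, 5014 and 5078 in WT MI-503, 6338 and 5973 in dKO DMSO and 5013 and 5069 in dKO MI-503. Summed over 22 genes, heat-shock protein RNA measured 30716 and 33308 CPM in WT DMSO, 13801 and 14342 in WT MI-503, 9938 and 9313 in dKO DMSO and 12169 and 12322 in dKO MI-503. Their TMM factors, 0.896 and 0.892, were the lowest of the 8. A response of WT cells, and so any interaction, needs these libraries as its reference, and whether their state belongs to the genotype or to these cultures cannot be told apart. The values that do not use them are the response in dKO and the genotype difference under MI-503. That difference is given below for some genes and some lists. These are the lists of ER chaperones, ER degradation, entry and export, heat-shock proteins, p53 targets and YAP/TEAD targets. Its median was not near 0 in every other list, beside 0.007 for all genes. For ATF4 targets it was -0.432 (2 genes higher, 31 lower, 7 not called) and for glycolysis and hypoxia -0.446 (3, 23 and 5). For DNA replication and mitosis it was 0.572 (34, 4 and 4) and for Hox genes 0.961 (23, 3 and 6). Without WT DMSO replicate 1, 7404 genes were called in the interaction, and without replicate 2, 6989.

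The response to MI-503 differed between the 2 genotypes in 7915 of 16921 genes (46.8%), 4190 of them higher (24.8%) and 3725 lower (22.0%). By at least 2-fold, 930 were higher and 1127 lower. Of these, 576 were under 1 CPM, where fold changes are least certain, and 462 from 1 to 5 CPM. Another 676 were from 5 to 50 CPM and 343 above 50 CPM. The median interaction of all genes was 0.018. With scaling by library size only, which left out the TMM factors, the median moved by -0.159 and 37.3% of calls were higher, against 52.9% with TMM. In WT, 35.2% of genes rose with MI-503 and 33.7% fell, while in dKO 29.1% rose and 26.5% fell. With library size only, 60.8% of the genes called in WT were higher, against 51.1% with TMM, and 53.7% of those called in dKO, against 52.3%. The share of genes called was greater at higher levels: 12.6% of genes under 1 CPM were called, 36.9% from 1 to 5 CPM, 59.7% from 5 to 50 CPM and 70.8% above 50 CPM. Shares of calls in the gene lists below are to be read beside 46.8% of all genes and beside these higher shares at higher levels.

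The called genes fall into classes by their responses in each genotype. The largest class, 3266 genes (41.3%), moved the same way in both and less in dKO, with a median size of the response of 1.15 (log2) in WT and 0.51 in dKO. A further 2324 genes (29.4%) were called in WT and not in dKO. In 815 genes (10.3%) the response was called in dKO and not in WT, and 571 genes (7.21%) moved the same way and more in dKO. Opposite responses, both called, were found in 857 genes (10.8%): 491 fell in WT and rose in dKO, and 366 did the reverse. The remaining 82 genes (1.04%) were called in neither response. Across all genes, the 2 responses correlated with Pearson's r of 0.611 and Spearman's rho of 0.629. Genes are not independent replicates, and the responses come from separate libraries.

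**Figure D1:**
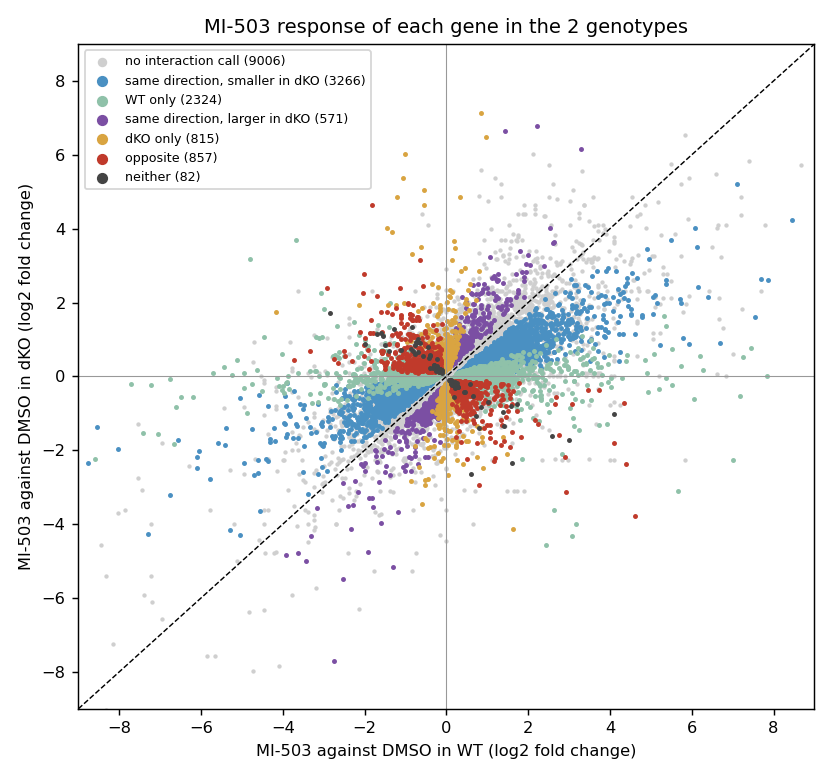
Response to MI-503 of each tested gene, as log2 fold change against DMSO, in WT (horizontal axis) and in dKO (vertical axis), coloured by class, with the dashed line at equal responses and points beyond 9 in size left off. The cloud of 3266 genes that moved the same way and less in dKO lies between the dashed line and the horizontal axis, and 857 genes with opposite responses lie in the upper left and lower right.

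The size of the reduction was much the same along the scale when genes were chosen by their WT response. Among genes with a mean of at least 5 CPM, 979 that rose in WT by 1 to 2 (log2) had a median ratio of the dKO to the WT response of 0.475, and 72 that rose by over 3 had 0.532. For 989 genes that fell by 1 to 2 the ratio was 0.456, and for 51 that fell by over 3 it was 0.448. Choosing by the WT response favours large WT values. Chosen by their dKO response instead, the ratios lay between 0.829 for 476 genes that rose by 1 to 2 and 1.32 for 17 genes that fell by over 3. Over all genes, the median size of the response was 0.634 in WT and 0.396 in dKO.

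A gene can also be described by which of the 4 groups differs from the rest. Where the gap of a group's mean log2 CPM to the nearest other mean was at least 2 times the range of the other 3, the group was counted as standing apart. WT DMSO did so in 1366 of the 7915 called genes, 728 times above and 638 times below the others. WT MI-503 stood apart in 383 genes, dKO DMSO in 262 and dKO MI-503 in 127. In the other 5777 genes no group did. At the called genes, the most frequent single-group pattern was therefore one in which the DMSO-treated WT cells differed and the other 3 groups lay together.

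**Figure D2:**
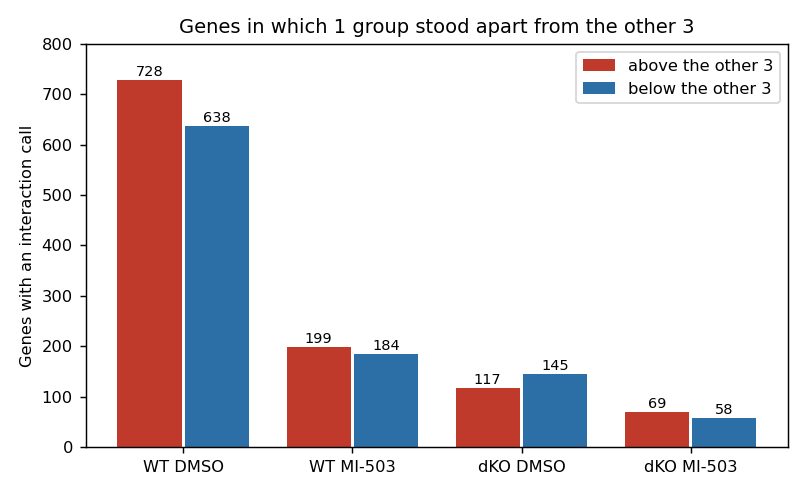
Number of genes with an interaction call in which 1 group stood apart from the other 3, above them (red) or below them (blue). WT DMSO accounts for 728 and 638 genes, against at most 199 and 184 for any other group.

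Of the 10 named genes with the largest positive interactions, 7 act in protein folding in the ER. The ER folds secreted and membrane proteins, and cells under folding stress raise its chaperones through ATF6, XBP1 and the ER stress element in promoters. Of 24 ER chaperone and folding genes, 21 were called higher, 1 lower (the oxidase gene Ero1l) and 2 not (Txndc5 and Sil1), a share of calls of 91.7%. The median interaction was 2.35 beside 0.018 for all genes. The median response was -2.39 in WT and 0.00 in dKO. In 16 of the 24, WT DMSO stood apart above the other groups. Without WT DMSO in the contrast, the median genotype difference under MI-503 was 0.09, with 10 genes higher, 5 lower and 9 not called, where 55.1% of all genes were called.

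Hsp90b1 (ENSMUSG00000020048, chromosome 10, 86690841 to 86705444), the ER member of the HSP90 family, measured 8608 and 9517 CPM in WT DMSO, 611 and 624 in WT MI-503, 695 and 632 in dKO DMSO and 654 and 674 in dKO MI-503. The WT DMSO libraries were far above the other 6, which lay between 611 and 695 CPM. Its response was -3.88 in WT and 0.00 in dKO (adjusted p = 0.991), an interaction of 3.88 (SE 0.0881, adjusted p = 3.43e-12). Creld2 (ENSMUSG00000023272, chromosome 15, 88819646 to 88826681), a folding helper, measured 741 and 765 CPM in WT DMSO, 23.9 and 21.6 in WT MI-503, 40.1 and 39.5 in dKO DMSO and 27.2 and 25.6 in dKO MI-503. Creld2 fell in both genotypes, but steeply in WT (-5.05 and -0.59 on the log2 scale, interaction 4.46, SE 0.08, adjusted p = 8.43e-13). The secreted folding factor Manf gave 1135 and 1232 CPM in WT DMSO, 49.4 and 49.9 in WT MI-503, 81.7 and 77.6 in dKO DMSO and 57.8 and 54.7 in dKO MI-503, with an interaction of 4.07. Sdf2l1, a partner of ER chaperones, measured 293 and 289.8 CPM in WT DMSO, 22.8 and 21.0 in WT MI-503, 13.2 and 13.8 in dKO DMSO and 18.8 and 17.7 in dKO MI-503, and here the small response in dKO was a rise (0.44). The disulfide isomerase gene Pdia4 (3.70) and the chaperone gene Hyou1 (3.32) likewise had both WT DMSO libraries above all others.

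Hspa5, which encodes BiP, the central ER chaperone (ENSMUSG00000026864, chromosome 2, 34772090 to 34776529), also fell in dKO. Its values were 14099 and 15232 CPM in WT DMSO, 342 and 342 in WT MI-503, 1511 and 1457 in dKO DMSO and 410.2 and 408 in dKO MI-503. Hspa5 fell in both genotypes (-5.42 in WT and -1.86 in dKO), and the interaction was 3.56 (SE 0.0752, adjusted p = 1.53e-12). The dKO DMSO libraries lay between WT DMSO and the MI-503 libraries, so a loss was seen on both backgrounds. Pdia3, another disulfide isomerase gene, measured 3272 and 3728 CPM in WT DMSO, 611 and 639.9 in WT MI-503, 575 and 533 in dKO DMSO and 596 and 607 in dKO MI-503 and did not respond by a called amount in dKO (0.12).

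The ER stress element reads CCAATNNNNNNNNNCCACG, where N is any base. It was searched on both strands in RefSeq promoter windows of GRCm38.p6, from 250 bases before to 50 after each start. Of the 24 ER genes, 19 had a window, and 7 of these held the element (36.8%), as did 0.137% of 27025 genes and 0.119% of 32851 windows. The 7 were Hspa5, Hsp90b1, Calr, Canx, Pdia6, Dnajc3 and Creld2. A match is a description of letters and does not show binding. The windows of the 3 with the largest interactions are printed with the element in capitals, read along the gene's strand (Creld2 chr15:88819396-88819695, plus strand, Hsp90b1 chr10:86705395-86705694, minus strand, Hspa5 chr2:34771840-34772139, plus strand). In Creld2 the element is on the opposite strand, and Hsp90b1 holds 1 on each strand.
Creld2: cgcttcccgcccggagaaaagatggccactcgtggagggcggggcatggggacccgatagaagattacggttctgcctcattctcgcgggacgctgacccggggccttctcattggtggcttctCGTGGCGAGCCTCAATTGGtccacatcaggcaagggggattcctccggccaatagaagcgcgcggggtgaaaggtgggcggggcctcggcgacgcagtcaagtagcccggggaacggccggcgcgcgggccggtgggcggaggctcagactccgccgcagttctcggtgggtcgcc
Hsp90b1: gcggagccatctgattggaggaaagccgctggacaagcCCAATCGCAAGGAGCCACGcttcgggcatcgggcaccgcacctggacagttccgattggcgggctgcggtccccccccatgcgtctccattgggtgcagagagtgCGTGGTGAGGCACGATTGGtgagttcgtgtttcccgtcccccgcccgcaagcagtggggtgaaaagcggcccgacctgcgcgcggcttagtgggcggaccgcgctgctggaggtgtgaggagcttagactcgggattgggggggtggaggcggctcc
Hspa5: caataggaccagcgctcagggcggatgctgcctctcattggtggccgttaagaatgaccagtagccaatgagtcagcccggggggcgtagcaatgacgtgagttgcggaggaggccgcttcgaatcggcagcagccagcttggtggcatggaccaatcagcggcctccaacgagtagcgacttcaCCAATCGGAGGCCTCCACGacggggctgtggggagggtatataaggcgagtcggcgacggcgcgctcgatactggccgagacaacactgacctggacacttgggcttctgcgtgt

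Positive interactions were also the rule in a list of ER-associated degradation, protein entry into the ER and ER export. Of its 28 genes, 24 were called higher in the interaction, 1 lower (Sec61a1, -0.23) and 3 not (89.3% called). The median was 0.993 (-1.19 in WT and -0.22 in dKO), and WT DMSO stood apart above the other groups in 12 genes. Under MI-503, the median genotype difference was 0.045, with 8 genes higher, 7 lower and 13 not called. Selenos, which encodes a membrane protein of the degradation machinery, measured 154 and 164 CPM in WT DMSO, 23.4 and 25.9 in WT MI-503, 29.1 and 29.8 in dKO DMSO and 25.3 and 24.4 in dKO MI-503 (2.45, SE 0.09, adjusted p = 3.86e-10). Edem1, which passes misfolded glycoproteins to degradation, measured 256 and 269.6 CPM in WT DMSO, 107 and 111 in WT MI-503, 76.2 and 72.4 in dKO DMSO and 95.5 and 100.14 in dKO MI-503, so it fell in WT and rose in dKO (1.67). Ssr3, a subunit of the translocon-associated complex, did the same (-1.30 in WT, 0.32 in dKO).

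The sensors and transcription factors of the unfolded protein response were less uniform: of 14, 7 were higher in the interaction, 4 lower and 3 not called (78.6% called). The median was 0.261, and the median response was -0.84 in WT and -0.71 in dKO. Ddit3, which encodes the stress factor CHOP, measured 637 and 606 CPM in WT DMSO, 25.6 and 22.4 in WT MI-503, 140.4 and 151 in dKO DMSO and 24.1 and 21.6 in dKO MI-503. Ddit3 fell in both genotypes and more in WT (-4.70 and -2.67, interaction 2.02). The values of both MI-503 groups overlapped, while the DMSO groups differed. Xbp1, whose spliced form drives chaperone genes, also fell in both (-1.88 and -0.70, interaction 1.18, SE 0.07, adjusted p = 2.19e-08). Mbtps1, the protease gene that activates ATF6, went the other way, with a rise in WT (0.40) and a fall in dKO (-0.33). Atf4 itself fell on both backgrounds (-0.98 and -1.13) and its interaction was not called (-0.14, adjusted p = 0.0635).

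Heat-shock proteins fold proteins in the cytosol and in mitochondria and are raised by HSF1. All 22 tested heat-shock genes were called higher in the interaction, with a median of 1.89 (-1.57 in WT and 0.04 in dKO). Under MI-503, the median genotype difference was -0.03, with 4 genes higher, 9 lower and 9 not called. The inducible HSP70 gene Hspa1b measured 706 and 779.9 CPM in WT DMSO, 27.0 and 27.6 in WT MI-503, 31.2 and 37.4 in dKO DMSO and 32.8 and 27.0 in dKO MI-503 and had the largest interaction of all genes that the naming rule admits (4.57, SE 0.13, adjusted p = 4.68e-11). It has a near-identical neighbour, Hspa1a, and how the reads were split between them is uncertain. Hsph1, an HSP110 nucleotide exchange factor gene (ENSMUSG00000029657, chromosome 5, 149616843 to 149636498), measured 1965 and 2230.5 CPM in WT DMSO, 116 and 122 in WT MI-503, 100.01 and 89.7 in dKO DMSO and 94.7 and 88.7 in dKO MI-503. In both genes the 6 libraries other than WT DMSO lay together. The J-domain partner gene Dnaja1 gave -2.28 in WT and 0.07 in dKO.

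In 7 of the 22 heat-shock genes the responses were opposite. Hspa8, the constitutive HSP70 gene (ENSMUSG00000015656, chromosome 9, 40801276 to 40805202), measured 5617 and 6034 CPM in WT DMSO, 3036 and 3277 in WT MI-503, 893 and 790.0 in dKO DMSO and 2472 and 2579 in dKO MI-503. The response was a fall in WT (-0.88) and a rise in dKO (1.58), an interaction of 2.47 (SE 0.0931, adjusted p = 5.02e-10). Here the dKO DMSO libraries were the lowest of the 8, and under MI-503 dKO remained somewhat below WT. The small heat-shock protein gene Hspb1 measured 538 and 523 CPM in WT DMSO, 246 and 220.3 in WT MI-503, 12.1 and 15.6 in dKO DMSO and 32.4 and 27.1 in dKO MI-503, so the response was a fall in WT and a rise in dKO, while both dKO groups stayed below both WT groups (2.29, SE 0.14, adjusted p = 3.17e-08). Hspb8 went the same way (-1.54 and 0.69). Cryab rose in both genotypes (2.53 and 4.03).

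The heat-shock element was searched as GAANNTTCNNGAA, a motif chosen after the values were seen. It was found in 4 of 17 list genes with a window (23.5%) and in 0.662% of all genes: Hspd1, Hspe1, Hsph1 and Chordc1. Hspd1 and Hspe1, the mitochondrial chaperonin genes, lie head to head, so their windows overlap and hold the same pair of overlapping matches. The Hspd1 window (chr1:55087883-55088182, minus strand) is shown with them in capitals, since Hspd1 fell in WT (-2.00) and did not respond by a called amount in dKO (0.00, adjusted p = 0.993).
Hspd1: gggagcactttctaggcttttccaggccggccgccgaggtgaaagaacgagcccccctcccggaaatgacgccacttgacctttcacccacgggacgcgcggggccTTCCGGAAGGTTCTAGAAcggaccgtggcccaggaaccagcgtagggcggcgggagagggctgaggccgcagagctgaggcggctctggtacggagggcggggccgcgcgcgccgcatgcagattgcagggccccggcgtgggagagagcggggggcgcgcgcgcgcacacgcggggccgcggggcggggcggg

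Most targets of p53, the factor that slows the cell cycle or starts cell death after damage, fell in WT, and most rose in dKO. Of 26 tested p53 target genes, 17 were called higher in the interaction, 2 lower and 7 not (73.1% called), with a median of 0.915. Under MI-503, the median genotype difference was 0.115, with 10 genes higher, 9 lower and 7 not called. In WT 6 rose and 20 fell, and in dKO 16 rose and 8 fell. The responses were opposite in 10 genes. Cdkn1a (ENSMUSG00000023067, chromosome 17, 29090979 to 29100722), which encodes the cell-cycle inhibitor p21, measured 769 and 814 CPM in WT DMSO, 304 and 319 in WT MI-503, 256 and 262 in dKO DMSO and 369.8 and 368 in dKO MI-503. WT DMSO was the highest group and dKO DMSO the lowest, and MI-503 moved them towards each other (-1.34 and 0.51, interaction 1.85, SE 0.0669, adjusted p = 3.62e-10).

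The death receptor gene Fas (ENSMUSG00000024778, chromosome 19, 34290647 to 34327775) measured 19.9 and 24.1 CPM in WT DMSO, 9.66 and 9.12 in WT MI-503, 1.67 and 1.77 in dKO DMSO and 5.89 and 6.52 in dKO MI-503. Fas fell in WT (-1.23) and rose in dKO (1.85), with the largest interaction of the p53 list (3.08, adjusted p = 1.15e-08). Btg2, an antiproliferative gene, measured 347 and 354 CPM in WT DMSO, 125 and 127 in WT MI-503, 64.3 and 63.0 in dKO DMSO and 80.7 and 80.2 in dKO MI-503 (-1.48 and 0.34). Plk2, a kinase gene of stressed cells, fell in both genotypes and less in dKO (-1.71 and -0.27). Trp53 itself fell in WT (-0.87), and its response in dKO was -0.02 (adjusted p = 0.687). Plk3 and Xpc were the 2 members lower in the interaction (-0.89 and -0.38). Ccnd1, Bax, Bbc3 and Sesn1 were among those not called.

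**Figure D3:**
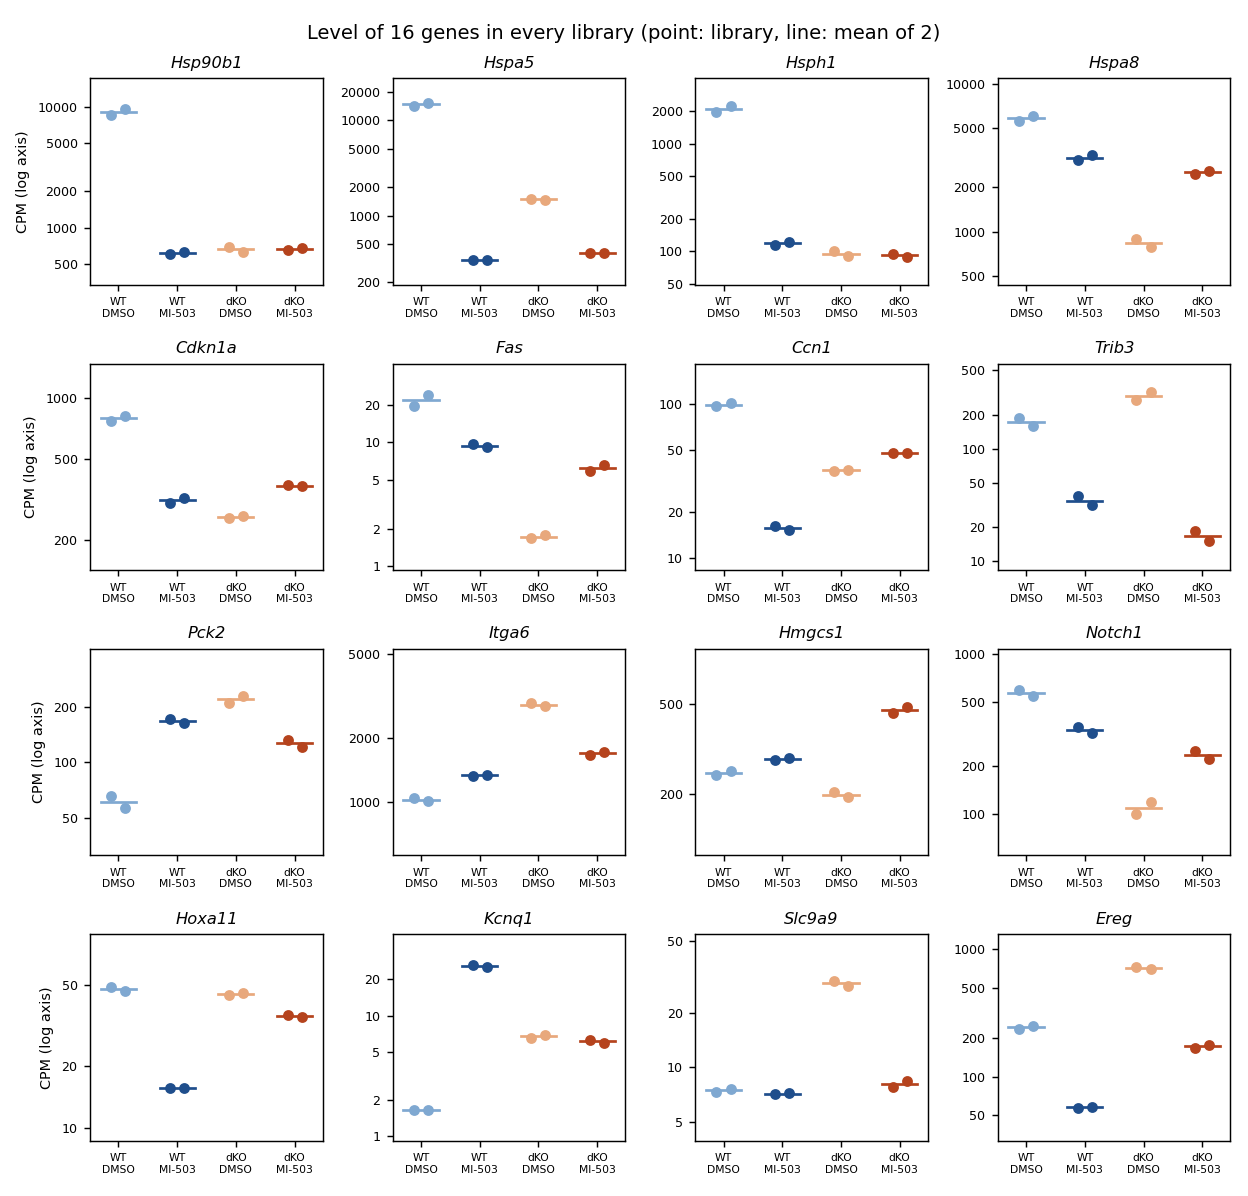
Level of 16 genes in each library, as CPM on log axes with a separate scale per gene, with 1 point per library and a line at the mean of 2. Hsp90b1 and Hsph1 are high in WT DMSO and level in the other groups, Hspa8, Fas and Notch1 fall in WT and rise in dKO, Slc9a9 is high in dKO DMSO, and Ereg falls alike in both genotypes.

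YAP and TEAD factors drive genes of spreading and growth in epithelial cells. All 20 tested genes of this pathway were called in the interaction, 16 higher and 4 lower, with a median of 0.735 (-0.42 in WT and 0.07 in dKO). Under MI-503, the median genotype difference was 0.241, with 11 genes higher, 5 lower and 4 not called. The matricellular gene Ccn1 (ENSMUSG00000028195, chromosome 3, 145646971 to 145649985) measured 96.4 and 101 CPM in WT DMSO, 16.1 and 15.1 in WT MI-503, 36.8 and 37.5 in dKO DMSO and 48.2 and 47.8 in dKO MI-503. WT MI-503 had the lowest libraries, and the rise in dKO was small (-2.66 and 0.37, interaction 3.03, SE 0.0807, adjusted p = 1.57e-11). Ccn2, a related target gene, rose in both genotypes and less in dKO (3.05 and 2.64). The factor gene Tead1 measured 551 and 576 CPM in WT DMSO, 169 and 169 in WT MI-503, 246 and 235 in dKO DMSO and 195 and 204 in dKO MI-503, with WT DMSO above the rest. F3, which encodes tissue factor, fell in both and less in dKO (-1.92 and -0.88).

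Of 25 TGF-beta and BMP pathway genes, 12 were higher in the interaction, 4 lower and 9 not called (64% called, median 0.312). All groups were grown with an inhibitor of the TGF-beta receptor and with Noggin, which binds BMPs. Inhba, the activin subunit gene, measured 36.6 and 36 CPM in WT DMSO, 18.3 and 18.5 in WT MI-503, 176 and 176 in dKO DMSO and 178 and 186 in dKO MI-503, so it fell in WT (-0.98) and its response in dKO was not called (0.05, adjusted p = 0.345). Bmp2 fell in both and more in dKO (-0.52 and -1.24), while Tgfb2 rose in both and more in dKO (0.40 and 1.33).

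ATF4 drives amino acid synthesis, uptake and transfer RNA charging when amino acids are short or the ER is stressed. This list ran against the folding lists: of 40 genes, 7 were higher in the interaction, 20 lower and 13 not called (67.5% called), with a median of -0.190. The median response was -0.92 in WT and -1.15 in dKO, so the loss was present in both genotypes (33 and 39 of 40 fell). In 14 genes it was larger in dKO. Trib3, a pseudokinase gene that ATF4 induces (ENSMUSG00000032715, chromosome 2, 152337425 to 152344060), measured 187 and 159.6 CPM in WT DMSO, 37.7 and 31.4 in WT MI-503, 272 and 317 in dKO DMSO and 18.5 and 15.1 in dKO MI-503. Trib3 fell in both (-2.32 and -4.13, interaction -1.81, SE 0.15, adjusted p = 6.08e-07), from the highest libraries in dKO DMSO to the lowest in dKO MI-503. Gpt2, an alanine aminotransferase gene, measured 114 and 112 CPM in WT DMSO, 94.1 and 87.7 in WT MI-503, 172 and 174 in dKO DMSO and 53.8 and 52.0 in dKO MI-503 (-0.31 and -1.71).

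In WT, 5 of the 40 ATF4 targets rose. Pck2, which encodes the mitochondrial form of a gluconeogenic enzyme (ENSMUSG00000040618, chromosome 14, 55540263 to 55550020), measured 65.7 and 56.6 CPM in WT DMSO, 172 and 163 in WT MI-503, 211 and 228 in dKO DMSO and 132 and 121 in dKO MI-503. Pck2 rose in WT (1.46) and fell in dKO (-0.79), and the WT DMSO libraries were the lowest (-2.25, SE 0.10, adjusted p = 2.07e-09). Sars, the serine transfer RNA synthetase gene, did the same (0.47 and -0.76, interaction -1.23), as did Shmt2, an enzyme gene of mitochondrial one-carbon metabolism (0.65 and -1.17). Gdf15, a stress hormone gene, was the 1 member that rose in dKO (2.33), at under 1 CPM in both dKO groups.

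The CARE motif, at which ATF4 binds with C/EBP partners, was searched as TGATGNAAT. Of 40 list genes, 32 had a window, and 4 of them held it (12.5%): Pycr1, Nupr1, Aars and Gars, against 1.08% of all genes. Of the 4, Aars had the interaction of largest size (-0.76). It encodes the alanine transfer RNA synthetase and fell in both genotypes (-0.31 and -1.07). Its window (chr8:111033592-111033891, plus strand) is printed with the motif in capitals, on the opposite strand.
Aars: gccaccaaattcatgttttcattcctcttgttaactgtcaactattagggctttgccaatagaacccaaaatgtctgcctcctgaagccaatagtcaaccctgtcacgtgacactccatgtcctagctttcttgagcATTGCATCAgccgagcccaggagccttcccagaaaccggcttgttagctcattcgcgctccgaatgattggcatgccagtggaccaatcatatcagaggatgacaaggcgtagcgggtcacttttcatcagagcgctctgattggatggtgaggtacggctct

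MYC drives ribosome production and cell growth. Of 35 genes of the MYC network and ribosome biogenesis, 19 were higher in the interaction, 5 lower and 11 not called (68.6% called). The medians were -0.68 in WT, -0.29 in dKO and 0.326 for the interaction. In 14 genes both responses were called in the same direction and the one in dKO was smaller. Wdr43, a nucleolar protein gene, was 1 of these, with 474 and 474 CPM in WT DMSO, 116 and 113 in WT MI-503, 321 and 311 in dKO DMSO and 132 and 132 in dKO MI-503. Pa2g4, a growth regulator gene, fell in WT (-1.16) and not by a called amount in dKO (-0.10, adjusted p = 0.056). Mycl, a MYC paralog gene, measured 43.5 and 43.2 CPM in WT DMSO, 25.0 and 25.0 in WT MI-503, 3.93 and 3.94 in dKO DMSO and 5.33 and 5.28 in dKO MI-503, with both dKO groups far below both WT groups. Of 48 cytosolic ribosomal protein genes, 12 were higher, 10 lower and 26 not called, a share of calls (45.8%) near the background of 46.8%, with a median of -0.015 that turned to 0.044 without WT DMSO replicate 2 and to 0.002 without WT MI-503 replicate 1. Rpl8, Rps24 and Rpl7a, the members with the smallest p, were lowest in WT DMSO (interactions -1.16, -0.83 and -0.69).

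Genes of DNA replication and mitosis were more often higher than lower in the interaction. Of 42, 21 were higher in the interaction, 9 lower and 12 not called (71.4% called, beside 46.8% of all genes and 70.8% of those above 50 CPM). The median response was 0.26 in WT and 0.53 in dKO (interaction 0.271). In dKO 34 rose and 2 fell, and in WT 23 rose and 10 fell. Cdc6, which loads the replicative helicase, measured 31.6 and 33.4 CPM in WT DMSO, 13.9 and 13.6 in WT MI-503, 13.7 and 13.6 in dKO DMSO and 16.0 and 17.0 in dKO MI-503, with a fall in WT (-1.24) and a small rise in dKO (0.27). E2f8, a repressor gene of the E2F family, rose in both and less in dKO, with 17.3 and 16.7 CPM in WT DMSO, 163 and 162 in WT MI-503, 50.6 and 52.0 in dKO DMSO and 168 and 174 in dKO MI-503 (-1.52, SE 0.07, adjusted p = 2.52e-09).

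Among the 857 genes with opposite responses, 26 fell in WT and rose in dKO by at least 2-fold each, and 23 did the reverse. The genes named here come from all opposite genes that met the naming rule, 405 and 295 in these directions. They were ranked by the smaller of the 2 responses, and not all passed 2-fold in both genotypes. Hspa8, for 1, fell by -0.88 in WT. Of those named for the reverse pattern only Serpinb1a passed 2-fold in both, so the other genes of the 23 did not meet the naming rule. Nol4l measured 9.62 and 12.0 CPM in WT DMSO, 4.55 and 4.09 in WT MI-503, 2.65 and 2.63 in dKO DMSO and 8.92 and 8.15 in dKO MI-503. Dpysl2, which encodes a microtubule-binding protein of growing cell processes, measured 23.7 and 25.5 CPM in WT DMSO, 6.55 and 6.90 in WT MI-503, 10.0 and 10.3 in dKO DMSO and 23.2 and 22.8 in dKO MI-503. In both genes MI-503 left WT low and dKO high, the inverse of the order in DMSO. Plekhf1, which encodes an endosomal protein, measured 38.5 and 34.4 CPM in WT DMSO, 13.0 and 11.5 in WT MI-503, 2.30 and 2.93 in dKO DMSO and 6.17 and 5.90 in dKO MI-503 and kept WT above dKO in both treatments. The myo-inositol transporter gene Slc5a3 measured 197 and 219 CPM in WT DMSO, 99.4 and 104 in WT MI-503, 36.4 and 34.2 in dKO DMSO and 86.2 and 92.9 in dKO MI-503. In Slc5a3 the genotypes lay far apart in DMSO (a log2 difference of -2.56) and close under MI-503 (-0.18).

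The next 8 genes had the reverse pattern, a rise in WT and a fall in dKO. Slitrk6, a transmembrane adhesion gene, measured 10.2 and 9.98 CPM in WT DMSO, 34.5 and 31.9 in WT MI-503, 201 and 187 in dKO DMSO and 97.8 and 103 in dKO MI-503, and the dKO libraries exceeded the WT libraries in both treatments. Serpinb1a, a protease inhibitor gene, measured 7.60 and 8.12 CPM in WT DMSO, 19.7 and 20.3 in WT MI-503, 9.06 and 8.45 in dKO DMSO and 3.35 and 3.74 in dKO MI-503, so the genotypes were close in DMSO and far apart under MI-503. Cd53, a tetraspanin gene known from leukocytes, measured 6.2 and 6.76 CPM in WT DMSO, 11.7 and 13.9 in WT MI-503, 3.35 and 3.32 in dKO DMSO and 1.45 and 1.22 in dKO MI-503. Epha4, an ephrin receptor gene, went from 41.5 and 42.7 to 69.6 and 71.4 CPM in WT and from 101 and 97.5 to 54.8 and 55.8 in dKO. Ift88, needed to build cilia (-1.44), the tubulin folding gene Tbcc (-1.62) and the prosaposin-like gene Psapl1 (-1.72) had the same pattern, as did Pck2, described above. The dKO libraries of Tbcc were scattered (10.6 and 13.5 CPM in DMSO, 8.55 and 5.96 with MI-503).

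The largest negative interactions belong to genes that MI-503 raised in WT. Kcnq1, a potassium channel gene (ENSMUSG00000009545, chromosome 7, 143106877 to 143427050), measured 1.66 and 1.65 CPM in WT DMSO, 26.2 and 25.4 in WT MI-503, 6.58 and 6.95 in dKO DMSO and 6.28 and 5.95 in dKO MI-503. Its response was 3.96 in WT and -0.15 in dKO (adjusted p = 0.176), so the dKO libraries lay between the WT groups (-4.10, SE 0.13, adjusted p = 1.39e-10). Selenbp1, which encodes a selenium-binding enzyme, followed the same order with 1.37 and 1.83 CPM in WT DMSO, 22.2 and 22.1 in WT MI-503, 5.12 and 3.85 in dKO DMSO and 3.89 and 3.92 in dKO MI-503. Gsdmc2, of the gasdermin family of pore-forming proteins, measured 2.65 and 2.31 CPM in WT DMSO, 26.3 and 28.2 in WT MI-503, 15.4 and 14.3 in dKO DMSO and 10.5 and 12.6 in dKO MI-503 and has close paralogs with which it may share reads. Dmkn, which encodes the epidermal protein dermokine, measured 6.49 and 6.23 CPM in WT DMSO, 147 and 145 in WT MI-503, 7.91 and 9.26 in dKO DMSO and 27.7 and 26.4 in dKO MI-503, and Nlrp10, an innate immune sensor gene, measured 1.25 and 1.24 CPM in WT DMSO, 40.3 and 43.2 in WT MI-503, 3.43 and 2.55 in dKO DMSO and 11.9 and 14.6 in dKO MI-503. Both rose in dKO as well. The atypical chemokine receptor gene Ackr3 differed: it measured 2.20 and 2.41 CPM in WT DMSO, 31.6 and 28.9 in WT MI-503, 39.5 and 39.1 in dKO DMSO and 62.1 and 64.6 in dKO MI-503, so WT DMSO was low and the other groups high.

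Pthlh, Pik3r2 and Vtcn1 had a called response in WT and one near 0 in dKO. Gjb2 and Zfp9, which follow them, had called responses in both genotypes. That of Gjb2 was a rise in WT (0.51) and a fall in dKO (-2.25). Pthlh, the gene of parathyroid hormone-related protein, and Pik3r2, a regulatory subunit of PI3 kinase, were low in WT DMSO and higher in all other libraries. Pthlh measured 7.10 and 6.15 CPM in WT DMSO, 34.1 and 31.8 in WT MI-503, 46.0 and 50.1 in dKO DMSO and 56.6 and 50.9 in dKO MI-503 and Pik3r2 7.96 and 6.65 CPM in WT DMSO, 39.4 and 34.9 in WT MI-503, 36.6 and 45.3 in dKO DMSO and 47.1 and 40.5 in dKO MI-503. Vtcn1, which encodes the immune checkpoint ligand B7-H4, was instead high in WT MI-503: it measured 11.2 and 11.3 CPM in WT DMSO, 52.4 and 58.0 in WT MI-503, 7.88 and 8.55 in dKO DMSO and 9.07 and 8.99 in dKO MI-503. Gjb2, the connexin 26 gene, stood apart in the dKO MI-503 group, with 11.7 and 12.7 CPM in WT DMSO, 16.9 and 17.8 in WT MI-503, 9.88 and 9.33 in dKO DMSO and 2.05 and 1.99 in dKO MI-503. Zfp9, a zinc finger gene, fell to 0.965 and 1.19 CPM in WT MI-503 from 15.6 and 17.7, and to 5.59 and 5.27 in dKO MI-503 from 8.11 and 7.65 (3.42, SE 0.17, adjusted p = 5.42e-09).

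Responses called in dKO and near 0 in WT were fewer, and in several of these genes dKO with MI-503 lay near the WT level. Aknad1 measured 13.1 and 12.9 CPM in WT DMSO, 13.4 and 13.6 in WT MI-503, 2.93 and 2.96 in dKO DMSO and 13.1 and 13.7 in dKO MI-503, so dKO DMSO was low and the other 6 libraries lay together. In Klhdc8a, Fam117a and Zcchc24 dKO DMSO was also the lowest group (interactions 1.30, 1.29 and 1.36). The endosomal sodium-proton exchanger gene Slc9a9 (ENSMUSG00000031129, chromosome 9, 94669557 to 95230453) was the mirror image, with 7.26 and 7.60 CPM in WT DMSO, 7.06 and 7.22 in WT MI-503, 30.1 and 28.0 in dKO DMSO and 7.78 and 8.35 in dKO MI-503 (-1.79, SE 0.12, adjusted p = 6.2e-08). Others went from above WT to below it: the anion exchanger gene Slc4a2 measured 36.3 and 32.6 CPM in WT DMSO, 34.4 and 30.8 in WT MI-503, 49.0 and 55.4 in dKO DMSO and 18.3 and 16.5 in dKO MI-503, and Nipal2 fell to 6.69 and 6.43 CPM in dKO MI-503 from 19.8 and 19.3, beside 13.5 to 16.4 in WT. Arg1, the arginase gene, measured 21.2 and 23 CPM in WT DMSO, 20.2 and 18.2 in WT MI-503, 5.94 and 5.54 in dKO DMSO and 1.02 and 1.72 in dKO MI-503, and the fatty acid activating gene Acsbg1 measured 17.2 and 16.3 CPM in WT DMSO, 17.6 and 14.9 in WT MI-503, 3.44 and 3.60 in dKO DMSO and 1.45 and 1.10 in dKO MI-503. In both, dKO was already low in DMSO. Fam217b rose in dKO (1.31) and remained below WT.

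In the next genes both responses had the same direction and the log2 response was the larger in dKO. Lpin1, which makes diacylglycerol and coactivates fat oxidation genes (ENSMUSG00000020593, chromosome 12, 16535669 to 16653903), measured 9.81 and 10.2 CPM in WT DMSO, 61.4 and 60.9 in WT MI-503, 6.03 and 5.47 in dKO DMSO and 68.7 and 71.3 in dKO MI-503. Lpin1 rose in both (2.61 and 3.61, interaction 1.00, SE 0.10, adjusted p = 1.65e-06). Acot2, a mitochondrial thioesterase gene, measured 26.1 and 25.5 CPM in WT DMSO, 2.84 and 2.36 in WT MI-503, 24.7 and 26.6 in dKO DMSO and 1.42 and 1.13 in dKO MI-503, and Tnfsf15, a cytokine gene of the TNF family, measured 35.1 and 37.9 CPM in WT DMSO, 2.91 and 2.99 in WT MI-503, 34.8 and 35.2 in dKO DMSO and 1.48 and 1.04 in dKO MI-503. In both, the DMSO groups overlapped and dKO was the lower under MI-503. Epgn, an EGF receptor ligand gene, measured 49.8 and 49.7 CPM in WT DMSO, 5.47 and 5.70 in WT MI-503, 248 and 229 in dKO DMSO and 19.5 and 20.5 in dKO MI-503. Txnip, the thioredoxin inhibitor gene, measured 1390.0 and 1387 CPM in WT DMSO, 232 and 251 in WT MI-503, 815 and 783 in dKO DMSO and 102 and 113 in dKO MI-503: its fold change was larger in dKO (-2.52 and -2.89), but its loss in CPM was larger in WT. Plekha6, Sord and Lpar2 likewise had the larger log2 rise in dKO (0.98, 0.59 and 0.52) and the larger rise in CPM in WT. Of the 571 genes with the larger response in dKO, the sign of the interaction differed between the 2 scales in 114 (20%). Of the 3266 with the smaller response in dKO, it differed in 191 (5.85%). For opposite responses the sign is the same on both scales by construction.

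Most detoxification genes driven by NRF2 rose in each genotype, and most were lower in the interaction. Of 31, 28 rose in WT and 26 in dKO, with medians of 1.49 and 1.05. In the interaction 22 were lower, 6 higher and 3 not called (90.3% called), and the median was -0.375. The carbonyl reductase gene Cbr3 measured 1.32 and 1.29 CPM in WT DMSO, 39.7 and 40.5 in WT MI-503, 2.50 and 2.90 in dKO DMSO and 25.8 and 23.3 in dKO MI-503 (-1.76, SE 0.15, adjusted p = 6.67e-07). Txnrd1, a thioredoxin reductase gene, was at 210.2 and 207 CPM in dKO DMSO, below the other 6 libraries, and rose more in dKO (0.27 and 1.27, interaction 1.00). Hmox1, which encodes heme oxygenase, fell in both and more in WT (-1.70 and -0.20). Gclc, of glutathione synthesis, rose in both, with 142 and 149.9 CPM in WT DMSO, 526 and 556 in WT MI-503, 138 and 127 in dKO DMSO and 574 and 608 in dKO MI-503, and its call (0.27, adjusted p = 0.0117) ended without WT MI-503 replicate 1 (0.23, adjusted p = 0.0671) and with scaling by library size only (0.11, adjusted p = 0.258).

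Cholesterol synthesis rose in both genotypes by nearly the same median (1.10 in WT and 1.07 in dKO), with 22 of 24 genes risen in WT and 23 in dKO, yet single enzymes differed. In the interaction 11 were lower, 6 higher and 7 not called (70.8% called, median -0.228). Dhcr7, the gene of a late step, measured 13.0 and 13.1 CPM in WT DMSO, 74.7 and 76.9 in WT MI-503, 46.2 and 45.4 in dKO DMSO and 84.9 and 85.7 in dKO MI-503, with WT DMSO the lowest group (-1.64, SE 0.07, adjusted p = 2.71e-09). Hmgcs1, which makes the precursor of mevalonate, measured 242 and 253 CPM in WT DMSO, 283 and 289 in WT MI-503, 204 and 193 in dKO DMSO and 458 and 485 in dKO MI-503, and Lss, the lanosterol synthase gene, measured 101 and 92.8 CPM in WT DMSO, 87.2 and 86.0 in WT MI-503, 52.8 and 50.8 in dKO DMSO and 106 and 107 in dKO MI-503. Hmgcs1 rose in both and more in dKO (0.21 and 1.25), while Lss fell in WT and rose in dKO (-0.16 and 1.04). Of 25 genes of fatty acid synthesis and storage, 5 were higher, 9 lower and 11 not called (56% called, median -0.140). The desaturase gene Scd1 measured 36.1 and 34.6 CPM in WT DMSO, 217 and 224 in WT MI-503, 99.6 and 90.7 in dKO DMSO and 293 and 303 in dKO MI-503 (-0.99), though its gain in CPM was slightly larger in dKO. Plin2, of lipid droplets, fell more in WT (0.91), and the elongase gene Elovl5 fell in WT and rose in dKO (-0.26 and 0.59).

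Most lysosomal genes rose with MI-503, and the median was smaller in dKO. Of 30, 25 rose in WT (median 1.00) and 21 in dKO (0.34), and in the interaction 16 were lower, 2 higher and 12 not called (60% called, median -0.342). The acid ceramidase gene Asah1 measured 106 and 108 CPM in WT DMSO, 208 and 211 in WT MI-503, 239 and 224 in dKO DMSO and 217 and 224 in dKO MI-503, the sphingolipid activator gene Psap 189 and 174 CPM in WT DMSO, 551 and 542 in WT MI-503, 312 and 320.2 in dKO DMSO and 475 and 450.3 in dKO MI-503, and the protease gene Ctsb 185 and 176 CPM in WT DMSO, 390.3 and 394 in WT MI-503, 231 and 218 in dKO DMSO and 265 and 272 in dKO MI-503. WT DMSO was the lowest group in each. Of 31 genes of glycolysis and the hypoxia response, 18 were lower in the interaction, 6 higher and 7 not called (77.4% called, median -0.445). Hk1, a hexokinase gene, measured 76.2 and 70.7 CPM in WT DMSO, 334 and 314 in WT MI-503, 101 and 109 in dKO DMSO and 183 and 164 in dKO MI-503, and Gpi1, of the next step, rose in both and less in dKO (1.61 and 0.51). The collagen hydroxylase gene P4ha2, also placed in this list, fell in WT and rose in dKO (-1.44 and 0.60, interaction 2.04).

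**Figure D4:**
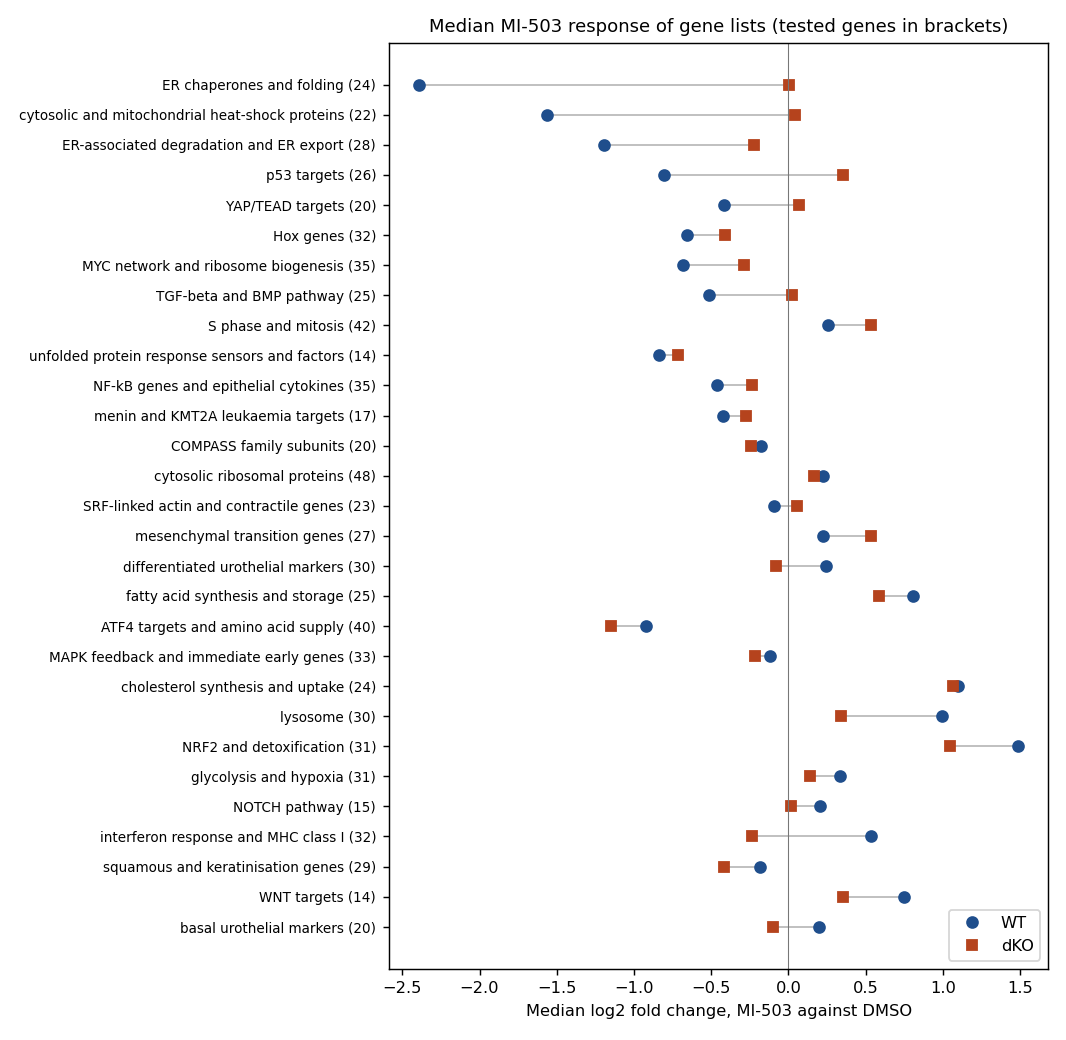
Median log2 response to MI-503 of the tested genes of each list with at least 10 of them, in WT (circles) and in dKO (squares), ordered by the median interaction. The lists of ER chaperones and heat-shock proteins are widest apart, with -2.39 and -1.57 in WT and 0.00 and 0.04 in dKO, and the ATF4 list lies further left in dKO than in WT.

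Basal urothelial genes include those that attach the epithelium to its base. Of 20 tested, 13 were lower, 2 higher and 5 not called (75% called, median -0.58), with 10 risen and 6 fallen in WT (median 0.196) and 5 risen and 9 fallen in dKO (median -0.097). Itga6 (ENSMUSG00000027111, chromosome 2, 71786886 to 71858427), a laminin receptor subunit gene of hemidesmosomes, measured 1042 and 1013 CPM in WT DMSO, 1326 and 1349.8 in WT MI-503, 2922 and 2845 in dKO DMSO and 1675 and 1728 in dKO MI-503. Itga6 rose in WT and fell in dKO (0.38 and -0.76, SE of the interaction 0.0650, adjusted p = 1.79e-08), and every dKO library stayed above every WT library. Lama3, a laminin chain gene, measured 536 and 531 CPM in WT DMSO, 911 and 907 in WT MI-503, 883 and 869 in dKO DMSO and 909.7 and 929.5 in dKO MI-503, with WT DMSO low. Egfr measured 241 and 249.7 CPM in WT DMSO, 140.3 and 142 in WT MI-503, 143 and 137 in dKO DMSO and 132 and 136 in dKO MI-503, with WT DMSO high. Trp63, the basal master regulator, fell in both genotypes (-0.96 and -0.83) and its interaction was not called (0.13, adjusted p = 0.107).

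Of 30 differentiated urothelial markers, 13 were lower in the interaction, 7 higher and 10 not called (66.7% called, median -0.131). The keratin gene Krt7 measured 1366 and 1255 CPM in WT DMSO, 5084 and 4891 in WT MI-503, 1978 and 2152 in dKO DMSO and 3012 and 2754 in dKO MI-503, so its rise was larger in WT (1.93 and 0.48). Ivl, the envelope protein gene involucrin, rose in WT and fell in dKO (0.78 and -0.47), and Tbx3, a transcription factor gene, did the reverse (-0.65 and 0.45). Of 29 squamous and keratinisation genes, 13 were lower, 5 higher and 11 not called (62.1% called, median -0.502). Dsg3, the desmosomal cadherin gene, measured 214 and 218 CPM in WT DMSO, 181 and 187 in WT MI-503, 622 and 586 in dKO DMSO and 274 and 283 in dKO MI-503 and fell more in dKO (-0.23 and -1.11). The plakin gene Ppl went up in WT and down in dKO (0.86 and -0.18), whereas Sprr3 of the cornified envelope fell more in WT (-3.95 and -1.30).

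Of 23 actin and contractile genes linked to SRF, 6 were higher, 7 lower and 10 not called (56.5% called, median -0.056). Flna, Tagln2 and Cald1 responded by called amounts in WT and not in dKO (interactions -0.62, 0.49 and 0.61). Of 27 mesenchymal transition genes, 8 were higher, 10 lower and 9 not called (66.7% called, median -0.057). Spp1, the osteopontin gene, measured 1.51 and 1.34 CPM in WT DMSO, 19.6 and 21.7 in WT MI-503, 6.61 and 6.04 in dKO DMSO and 8.59 and 9.72 in dKO MI-503. Tgfbi, a secreted matrix gene, measured 30.9 and 28.0 CPM in WT DMSO, 248 and 251 in WT MI-503, 11.4 and 11.2 in dKO DMSO and 41.6 and 39.1 in dKO MI-503. Cdh1, the E-cadherin gene, measured 337 and 329.9 CPM in WT DMSO, 389 and 389.6 in WT MI-503, 492 and 497 in dKO DMSO and 279 and 285 in dKO MI-503, so it rose slightly in WT and fell in dKO (0.23 and -0.81). Spp1 and Tgfbi rose in both genotypes, together with the Fbln1 and Cd68 values given above. Of the marker lists, fibroblast markers had 1 gene higher, 1 lower and 2 not called of 4 tested, smooth muscle markers 1, 1 and 4 of 6, endothelial markers 0, 0 and 2 of 2, immune markers 0, 1 and 2 of 3, and neural genes 3, 0 and 6 of 9. Their medians of -0.442, -0.126, -0.740, 0.782 and 0.649 rest on few genes, and each turned in sign under at least 1 alternative. Of the neural genes, Map2 fell in both genotypes and less in dKO (0.67).

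NOTCH signalling passes from ligands on 1 cell to receptors on its neighbour and then to RBPJ in the nucleus. Of 15 pathway genes, 5 were higher in the interaction, 7 lower and 3 not called (80% called), and the median of -0.468 turned to 0.033 without dKO DMSO replicate 1. The receptor gene Notch1 (ENSMUSG00000026923, chromosome 2, 26457902 to 26503822) measured 597 and 548 CPM in WT DMSO, 349.5 and 321 in WT MI-503, 99.2 and 119.6 in dKO DMSO and 249 and 219 in dKO MI-503. Notch1 fell in WT and rose in dKO (-0.77 and 1.10, SE of the interaction 0.12, adjusted p = 4.31e-08), and dKO DMSO was the lowest group. The ligand gene Jag1 measured 408 and 411 CPM in WT DMSO, 121 and 117 in WT MI-503, 394 and 395 in dKO DMSO and 203 and 206 in dKO MI-503, a fall in both that was larger in WT. Rbpj measured 252 and 257 CPM in WT DMSO, 141 and 147 in WT MI-503, 55.8 and 51.9 in dKO DMSO and 52.4 and 56.6 in dKO MI-503, with a fall in WT, while its response in dKO was 0.02 (adjusted p = 0.813), and both dKO groups were below both WT groups. The receptor Notch3 and the targets Nrarp and Hes1 were lower in the interaction (-1.35, -0.80 and -0.47).

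Of 14 WNT target genes, 7 were lower in the interaction, 2 higher and 5 not called (64.3% called, median -0.550), in a medium with R-spondin, which raises WNT signalling. Axin2, the feedback gene, measured 3.79 and 3.65 CPM in WT DMSO, 12.0 and 11 in WT MI-503, 24.7 and 24.6 in dKO DMSO and 25.6 and 23.4 in dKO MI-503, so it rose in WT (1.63), with a response in dKO of -0.01 (adjusted p = 0.915). Sox9 rose in both and less in dKO (1.46 and 0.61), and Rnf43, a ligase gene that removes WNT receptors, rose in WT and fell in dKO (0.45 and -0.36). Of 33 MAPK feedback and immediate early genes, 7 were higher, 13 lower and 13 not called (60.6% called, median -0.215). The phosphatase gene Dusp6 rose in WT and fell in dKO (0.28 and -0.27). The EGF receptor ligand genes Areg and Btc were lower in the interaction, Areg with -1.39 in WT and -1.91 in dKO, and Btc with 0.14 (adjusted p = 0.242) and -1.16.

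Of 32 interferon response and MHC class I genes, 15 were lower in the interaction, 4 higher and 13 not called (59.4% called, median -0.501). The median response was 0.53 in WT and -0.24 in dKO. Usp18, a brake on interferon signalling, measured 30.3 and 29.2 CPM in WT DMSO, 40.8 and 41.7 in WT MI-503, 4.68 and 4.74 in dKO DMSO and 2.18 and 2.85 in dKO MI-503. Irf9, a factor of the same pathway, measured 5.44 and 5.19 CPM in WT DMSO, 7.12 and 6.03 in WT MI-503, 21.5 and 23.2 in dKO DMSO and 10.3 and 12.1 in dKO MI-503. Both rose in WT and fell in dKO. Tap1, the peptide transporter gene, measured 32.5 and 30.3 CPM in WT DMSO, 31.9 and 31.0 in WT MI-503, 22.8 and 23.6 in dKO DMSO and 47.3 and 45.6 in dKO MI-503, so it rose in dKO (1.00), beside a response of 0.00 in WT. Of 35 NF-kB genes and epithelial cytokines, 10 were higher, 10 lower and 15 not called (57.1% called). Their median of 0.109 turned to -0.051 with scaling by library size only and to -0.21 with a filter at 5 CPM. The alarmin gene Il33 measured 49.2 and 50.5 CPM in WT DMSO, 423 and 453 in WT MI-503, 81.0 and 73.2 in dKO DMSO and 117 and 130.2 in dKO MI-503 (-2.45, SE 0.09, adjusted p = 4.08e-10). Il1rn, the interleukin 1 antagonist gene, rose in WT and fell in dKO (1.05 and -0.71), and Tnfaip2 rose in WT (0.94), with -0.06 in dKO (adjusted p = 0.25).

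Most tested Hox genes fell in each genotype. Of 32 tested Hox genes, 21 fell in WT and 18 in dKO, with medians of -0.65 and -0.41. In the interaction 12 were higher, 3 lower and 17 not called (median 0.401), a share of calls of 46.9% beside 46.8% for all genes. Hoxa11 (ENSMUSG00000038210, chromosome 6, 52242105 to 52245810) measured 49.1 and 46.6 CPM in WT DMSO, 15.6 and 15.7 in WT MI-503, 44.6 and 45.8 in dKO DMSO and 35.6 and 34.8 in dKO MI-503, with WT MI-503 apart below the rest (1.25, SE 0.08, adjusted p = 6.61e-08). Hoxa13 fell from 12.2 and 12.7 to 3.51 and 3.16 CPM in WT and from 28.8 and 27.0 to 22.3 and 20.3 in dKO. Hoxa9 and Meis1, the best known leukaemia targets, fell in both, and their interactions were not called (0.04, adjusted p = 0.653, and 0.08, adjusted p = 0.555).

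Of 17 menin and KMT2A leukaemia target genes, 6 were higher, 3 lower and 8 not called, a share of calls of 52.9% beside 46.8% for all genes. The median of 0.080 turned to -0.079 with scaling by library size only. The cell-cycle inhibitor gene Cdkn1b fell in both and less in dKO (0.54), Bcl2 rose in WT and fell in dKO (0.41 and -0.33), and Runx2 fell in dKO (its response in WT was 0.02, adjusted p = 0.778), with 65.7 and 62.4 CPM in WT DMSO, 63.5 and 66.2 in WT MI-503, 159 and 155 in dKO DMSO and 108 and 112 in dKO MI-503. Of 20 subunit genes of the COMPASS family, the complexes that KMT2 enzymes work in, 6 were higher, 5 lower and 9 not called (55%, near the same 46.8%), with a median of 0.060, and of -0.099 with library size only. Hcfc2 rose in WT and fell in dKO (0.50 and -0.40). Kdm6a, the H3K27 demethylase gene whose product sits in the KMT2C and KMT2D complexes, measured 116 and 129 CPM in WT DMSO, 55.8 and 59.1 in WT MI-503, 92.1 and 81.3 in dKO DMSO and 60.0 and 60.1 in dKO MI-503 (0.56). Wdr82 fell in both and less in dKO (0.52).

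Where a group had under 1 CPM, a fold change depends on the prior count, and the leading genes are given by their raw counts per library. Derl3, of ER-associated degradation, had 13051 and 13162 counts in WT DMSO, 41 and 33 in WT MI-503, 54 and 39 in dKO DMSO, and 17 and 17 in dKO MI-503. Il23a, an interleukin 23 subunit gene, had 4262 and 4091, 97 and 85, 43 and 50, and 15 and 10 in the same order. Fam171b had 3017 and 3319, 24 and 37, 875 and 790, and 92 and 76. The keratin gene Krt6b had 351 and 352, 6 and 5, 2757 and 3039, and 715 and 640. These 4 fell with MI-503 in both genotypes. The matrix gene Sparc rose in both and was low in dKO, with 7491 and 6731, 13659 and 11886, 39 and 54, and 243 and 249 counts.

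Of those with the smallest p in the negative direction, Vim, the vimentin gene of mesenchymal cells, had 30 and 30 counts in WT DMSO, 1900 and 1464 in WT MI-503, 221 and 280 in dKO DMSO, and 1049 and 812 in dKO MI-503. Pcdh18, a protocadherin gene, had 44 and 44, 532 and 517, 364 and 392, and 506 and 437. Hpgds, a prostaglandin synthase gene, had 32 and 57, 419 and 371, 744 and 731, and 420 and 402. Apobr, a lipoprotein receptor gene, had 530 and 548, 1051 and 912, 307 and 346, and 38 and 42. Prl2c2, a proliferin gene with near-identical copies whose share of the reads is uncertain, had 16 and 13, 4007 and 3233, 468 and 491, and 2861 and 2626. In Vim, Pcdh18, Hpgds and Prl2c2, WT DMSO was the lowest group, and Hpgds and Apobr rose in WT and fell in dKO.

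Many responses did not differ by a called amount. Both responses were called in the same direction in 7015 genes, and the interaction was not called in 3178 of these, 1755 risen and 1423 fallen. A missing call is not evidence of equal responses, so the 95% interval of the interaction was used: it lay within a 1.5-fold ratio in 2034 of the 3178. Over all 16921 genes it did so in 5218, whereas 5560 of the 9006 genes not called had intervals that reached past 1.5-fold. Ereg, an EGF receptor ligand gene (ENSMUSG00000029377, chromosome 5, 91074617 to 91093649), fell from 238 and 250.1 to 57.2 and 58.5 CPM in WT and from 722 and 702 to 169.7 and 179 in dKO. The interaction was 0.05, with an interval from -0.10 to 0.19, so both genotypes lost about the same share from different levels.

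Further genes with large responses in both genotypes and no interaction call follow. Arrdc4, an arrestin-like gene, measured 317 and 328 CPM in WT DMSO, 69.0 and 71.6 in WT MI-503, 96.6 and 95.4 in dKO DMSO and 22.0 and 22.4 in dKO MI-503 (interval -0.06 to 0.23). Stbd1, of glycogen transport, measured 279.9 and 285 CPM in WT DMSO, 62.2 and 62.2 in WT MI-503, 144 and 141 in dKO DMSO and 32.1 and 34.2 in dKO MI-503 (interval -0.07 to 0.22). The metalloreductase gene Steap1 gave -2.42 and -2.51 (interval -0.23 to 0.06), and Mei4 gave -2.68 and -2.66 (interval -0.36 to 0.40). Among genes that rose, Tsku, a secreted matrix protein gene, measured 13.0 and 11.2 CPM in WT DMSO, 58.1 and 53.2 in WT MI-503, 6.65 and 7.40 in dKO DMSO and 35.0 and 30.7 in dKO MI-503 (interval -0.26 to 0.30). Maged2 rose by 2.15 and 2.21, and Nav2 by 2.03 and 2.15. Pxylp1, which acts on proteoglycan sugars, rose by 2.07 and 2.08.

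The same interaction can be read as a change in the genotype difference. Of all genes, 65.4% were called between dKO and WT in DMSO and 55.1% under MI-503. Of the 7915 genes with an interaction call, 2600 differed between the genotypes in DMSO and not by a called amount under MI-503, and 1143 the reverse. In 1884 the difference kept its direction and was smaller under MI-503, and in 866 it was larger. The order of the genotypes was inverted, with both differences called, in 1316 genes, and 106 genes were called in neither. Ccn1 is an example of an inverted order, with a genotype difference of -1.41 in DMSO and 1.62 under MI-503, and Trib3 is another (0.77 and -1.04). For Hsph1 the difference was -4.47 in DMSO and -0.37 under MI-503, and for Hspa5 it was -3.31 and 0.26.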

How the data were processed

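RNA-seq of polyA RNA gave a table of raw read counts per Ensembl gene, deposited without normalization by the authors, in whole numbers with unequal totals. STAR is among the tools, and GRCm38 and mm10 are the builds, named for the series in the submitters' processing notes. The counting program, its strand setting and all versions were not given in the sources used, so overlapping, antisense and near-identical genes are uncertain. The table has 53465 identifiers, 53274 with a symbol. A row that named no gene (1 in all) was dropped. RefSeq GRCm38.p6 gave positions, by symbol, for 15515 tested genes. In R 4.3.3, edgeR 4.0.16 removed 36544 genes with filterByExpr (at least 10 counts in a group's libraries, at least 15 in total), so 16921 were tested. A quasi-likelihood model with TMM scaling and 1 mean per group was fitted to 8 libraries (4 residual degrees of freedom, biological coefficient of variation 5.14%), tested two-sided with Benjamini-Hochberg adjustment over all genes at 0.05. SE is the size of the log2 difference over the square root of F, and fold changes use edgeR's default prior count. With 2 libraries a group, an exact permutation test has a smallest p of 0.33. Alternatives were RLE factors, library size only, DESeq2 1.42.0, other filters and thresholds, the replicate number as a block, as labelled and crossed in dKO DMSO (the latter added after seeing the data), and leaving out single libraries. The script was tested on simulated data.

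The members and lists were chosen with earlier results of these data known. The rule for named genes took those with a mean of at least 5 CPM, at least 1 CPM in each group mean and a proper symbol: the 10 largest interactions per direction, 8 opposite genes per direction ranked by the smaller response, 5 per direction called in 1 genotype with a response under 0.2 (log2) in the other, 5 per direction with the larger response in dKO, the 3 smallest p per list, 5 shared responses per direction with both sizes at least 2 (log2), Kmt2c, Kmt2d, Kmt2a and Men1. Of the genes so named, 5 are not reported here. For genes under 1 CPM in a group, 5 per direction are given by counts. Other list members named in the text were chosen after their values were seen. The table has 0 columns of other samples. The other samples of the series were not used here.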

Additional observations from a re-analysis of the deposited data

Results flagged for a closer look

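The following results stand out because the responses of the 2 genotypes to MI-503 differed by the interaction test itself (edgeR, adjusted over all genes). Such a difference was called in 7915 genes, and in 857 of them the responses were called in opposite directions. In 26 of these WT fell and dKO rose by at least 2-fold each, and in 23 the reverse. The genes named next were taken by rule from all opposite genes with enough counts, and not all of them passed 2-fold in both genotypes. Of the opposite genes named by rule, those that fell in WT and rose in dKO had interactions of 3.08 (Fas), 3.05 (Dpysl2), 3.01 (Nol4l), 2.77 (Plekhf1), 2.47 (Hspa8), 2.37 (Slc5a3) and 2.29 (Hspb1). Those that rose in WT and fell in dKO had -2.67 (Slitrk6), -2.65 (Serpinb1a), -2.30 (Cd53), -2.25 (Pck2), -1.72 (Psapl1), -1.62 (Tbcc), -1.59 (Epha4) and -1.44 (Ift88). The groups hold 2 libraries each, so a test for single outlying libraries was not made.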

How the results depend on the processing

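The number of genes called in the interaction was 7852 with RLE size factors, 7992 with library size only, 7157 with DESeq2, 8033 with no filter, 6973 with a filter at 5 CPM in 2 libraries and 6027 at an adjusted p of 0.01, beside 7915. The calls were not all the same genes. Of the 7915, 7638 (96.5%) were kept with RLE size factors, 6703 (84.7%) with library size only and 7062 (89.2%) with DESeq2. With no filter 7081 (89.5%) were kept and with the filter at 5 CPM 6715 (84.8%). When the ratio of responses was tested against 1.5-fold, 2276 genes were called. In each of these settings but the last, which was not compared, 0 of the shared calls changed sign. At an adjusted p of 0.01 this was fixed in advance, because the fit was the same. Leaving out each library in turn gave 6730 to 7614 calls for the interaction (fewest without WT MI-503 replicate 1), 683 to 778 opposite genes, 2731 to 3118 with the smaller and 390 to 564 with the larger response in dKO, 2018 to 2702 called in WT alone, 664 to 839 in dKO alone and 70 to 108 in neither. Genes called in neither were 40 with the filter at 5 CPM, and at an adjusted p of 0.01 there were 532 opposite genes and 334 with the larger response in dKO. With a gap of 1 times the range, WT DMSO stood apart in 2794 genes, WT MI-503 in 989, dKO DMSO in 662 and dKO MI-503 in 352, and with 3 times in 757, 197, 144 and 70. Leaving out single libraries gave 1193 to 1428, 338 to 378, 199 to 280 and 102 to 135 in the same order, and 2973 to 3382 shared responses without an interaction call. The share of calls that were higher was 37.3% with library size only and 42.7% with no filter, against 52.9%. Of the 152 named genes, 152 kept their direction and side of the threshold with RLE factors and with DESeq2. Most of them were chosen in these same libraries for large effects or small p, which favours a kept call in every setting. With library size only, Kmt2c (-0.23, adjusted p = 0.0382) and Steap1 (-0.25, adjusted p = 0.00865) gained a call and Gclc and Kmt2a lost theirs. On a linear CPM scale the sign was inverted for Plekha6 (-107.7), Sord (-55.3), Lpar2 (-5.46), Txnip (456) and Scd1 (18.2). List medians kept their sign in all settings except those of the 5 lists of genes of other cell types, the menin targets, COMPASS subunits, NF-kB genes, NOTCH genes and ribosomal proteins. Their sizes were less stable. With library size only, 27 of 34 medians moved by at least the standard error taken from the replicates. With no filter 23 of 34 did so, with the filter at 5 CPM 12 of 33, with DESeq2 2 of 34 and with RLE factors 1 of 34. For COMPASS subunits the median was -0.034 with no filter, -0.001 without WT DMSO replicate 1 and -0.017 without dKO DMSO replicate 1, for menin targets -0.018 with no filter, and for NF-kB genes -0.030 without dKO MI-503 replicate 1. The labels do not say that equal replicate numbers share a culture or day. Replicate differences of dKO DMSO correlated with those of the other groups at -0.495, -0.483 and -0.606, and the others with each other at 0.403 to 0.446. With the replicate block, 7572 genes were called, 7551 of them among the 7915, and 152 of 152 named genes kept their call. With the numbers crossed in dKO DMSO, a replicate block chosen after seeing the data, 9279 genes were called, 7903 of them among the 7915, and 914 had the larger response in dKO. Depth limits genes under 1 CPM, whose median SE was 0.711, against 0.074 above 50 CPM.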
